A study of Mus musculus with 5 samples.

Results

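Lin28 and 7 other RNA-binding protein genes of mouse embryonic stem cells (ESCs) were followed across 5 ESC lines: Lin28, Lin28b, Igf2bp1, Igf2bp2, Igf2bp3, Trim71, Pum2 and Eif4g2. A probe was taken as a member when the gene name that the array files give it was one of these. This gave 17 of the 41174 non-control probes, covering 7 of the 8 genes, with 3 probes each for Lin28b, Igf2bp1, Igf2bp3, Pum2 and Eif4g2 and 1 each for Lin28 and Igf2bp2. No probe carried the name Trim71, and that gene is not analysed here. One further probe, which the files list under a RIKEN clone name, matched Eif4g2 by synonym and was not counted as a member.

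The series asked what the loss of ECAT11 does to ESCs. ECAT11 (also L1td1) is an ESC-enriched gene related to the RNA-binding ORF1 protein of the L1 retrotransposon. Cy3-labelled total RNA of every line was read on an Agilent one-colour array of its own. The wild-type group held RF8, labelled male and of 129sv background, and #620-2, labelled female and of mixed C57BL6/129sv background. The ECAT11 EGFP/EGFP group, in which an EGFP-IRES-Puro cassette replaces the coding region on both alleles, held #620-6, labelled female, and #757-1 and #757-2, both labelled male, all of mixed C57BL6/129sv background. All 5 lines were grown without feeder cells on gelatin, in medium with LIF and serum. RF8 is an established line, the knock-in allele goes back to a single targeted ESC clone, and the other lines came from blastocysts of heterozygote matings. Each line was 1 culture on 1 array, so p-values measure the spread between lines together with that of culture, labelling and array. The main test took the lines as independent, with no term for a shared line number or for the slide. ECAT11 itself had no probe by name or accession, so the genotype labels could not be checked on its transcript.

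RF8, #620-2 and #620-6 lay on slide 1, and #757-1 and #757-2 on slide 2. Signals are given as log2 of the ratio to the 75th percentile of the same array, so that 0 is that percentile, which lay between 692 and 797. No spot was saturated, and the number of arrays limits the precision. The 2 arrays of slide 2 had fewer probes well above background, 22100 and 21285, than those of slide 1, which had between 26412 and 27202. All 17 member probes passed the filter on dim probes, and 16 of them were well above background in all 5 lines. Probes printed several times on an array had a median SD of between 0.055 and 0.072 over their spots on the log2 scale. The ESC identity of the lines was checked on 9 markers (Pou5f1, Sox2, Nanog, Esrrb, Fbxo15, Dppa5a, Utf1, Tdgf1 and Zfp42), and 9 of 9 were well above background in every line, with summed signals between 476 and 555 times the 75th percentile. Most of each sum was Dppa5a, at a log2 signal between 8.07 and 8.42. Single markers differed more between lines, and Zfp42 ranged over 3.13 on the log2 scale.

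LIN28 (the product of Lin28, now called Lin28a) and LIN28B are RNA-binding proteins that hold back the let-7 microRNAs in early embryonic cells. They bind the loop of let-7 precursors and keep them from being processed, and LIN28 recruits enzymes that add uridines to the precursor and mark it for decay. When let-7 accumulates, on differentiation, it represses Lin28, Lin28b, Igf2bp1, Trim71 and Hmga2 in turn. IGF2BP1, IGF2BP2 and IGF2BP3 bind many mRNAs and affect their stability and translation. PUM2 is a Pumilio repressor of mRNAs, and EIF4G2 (also NAT1) is a relative of the initiation factor eIF4G that lacks its binding region for the cap-binding protein. In human ESCs the ECAT11 protein has been found in complexes with LIN28. The study used NAT1 as a loading control of its RT-PCR.

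The let-7 sequences are shown because the LIN28 proteins bind the precursors of these microRNAs. Of the mature let-7 sequences from the 5′ arm in RefSeq (assembly GRCm38.p6), 8 of 8 have the same seed, GAGGUAG, at bases 2 to 8. In 4 of them the seed is given in capitals.
mmu-let-7a-5p: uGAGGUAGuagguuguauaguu
mmu-let-7d-5p: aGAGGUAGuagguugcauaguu
mmu-let-7e-5p: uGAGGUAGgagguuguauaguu
mmu-let-7g-5p: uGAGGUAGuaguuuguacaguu
The motif through which LIN28 proteins bind the precursor, GGAG, was searched on the transcribed strand of the 11 let-7 hairpins. It stood after the 5′ arm in 9 of 11, and 44.5% of all 1005 mouse hairpins held it somewhere. The Mirlet7g hairpin, with the motif in capitals, is one that has it, and the hairpins of Mirlet7b and Mirlet7c-2 do not.
Mirlet7g: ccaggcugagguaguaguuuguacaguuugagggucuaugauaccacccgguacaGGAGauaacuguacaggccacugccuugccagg
Mirlet7c-2: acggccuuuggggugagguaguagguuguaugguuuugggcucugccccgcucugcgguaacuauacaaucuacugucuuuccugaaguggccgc
A letter match is a description of the sequence only. The array does not measure mature let-7.

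The members were read by probes of 60 bases, placed on build mm7 by the array files. Lin28 was read at chr4:133382045-133382104, on the minus strand. The 3 Lin28b probes lie on the minus strand of chromosome 10 and are far apart, the brightest at chr10:45189273-45189332 and the others at chr10:45232798-45232857 and chr10:45267326-45267385. No annotation of this build was used, so exons and introns are not given. Sequences are shown for 1 dimmer probe each of Lin28b and Eif4g2 and both of Igf2bp3, whose values are set beside the brightest probe of their gene below. They were chosen among the probes with a reading frame without a stop codon through all their bases, and each is printed as the mRNA strand.
Lin28b, chr10:45232798-45232857: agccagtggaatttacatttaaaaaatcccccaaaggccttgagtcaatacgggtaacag
Igf2bp3, chr6:49047900-49048507: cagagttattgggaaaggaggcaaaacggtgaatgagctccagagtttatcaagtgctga
Igf2bp3, chr6:49067452-49067511: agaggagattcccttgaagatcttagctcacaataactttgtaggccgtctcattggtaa
Eif4g2, chr7:106994023-106994821: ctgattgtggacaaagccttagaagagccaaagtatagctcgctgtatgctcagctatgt
The chr6:49047900-49048507 probe of Igf2bp3 and the Eif4g2 probe span 608 and 799 bases of the genome, more than their own length.

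No member was called between the genotypes. With limma and Benjamini-Hochberg adjustment over all 28972 probes kept, 0 of the 17 member probes had an adjusted p under 0.05 with a change of more than 2-fold, where 0.00345% of all probes kept did (1 probe). The smallest adjusted p of a member was 0.856. At an unadjusted p under 0.05, 0 of 17 passed against a background of 7.61%, of which those over 2-fold made up 3.33% of all probes kept (2.33% higher and 1% lower in the ECAT11 EGFP/EGFP lines), and the unpaired test named in the study's methods also called 0. The lines of the genotypes overlapped on all 17 member probes, whereas the groups did not overlap for 23.6% of all probes measured on every array. Signals were higher in the ECAT11 EGFP/EGFP lines on 8 member probes and lower on 9, and the median log2 fold change was -0.04 over the members and -0.02 over all probes kept. An exact permutation test of 2 lines against 3 cannot give a p under 0.1.

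**Figure D1:**
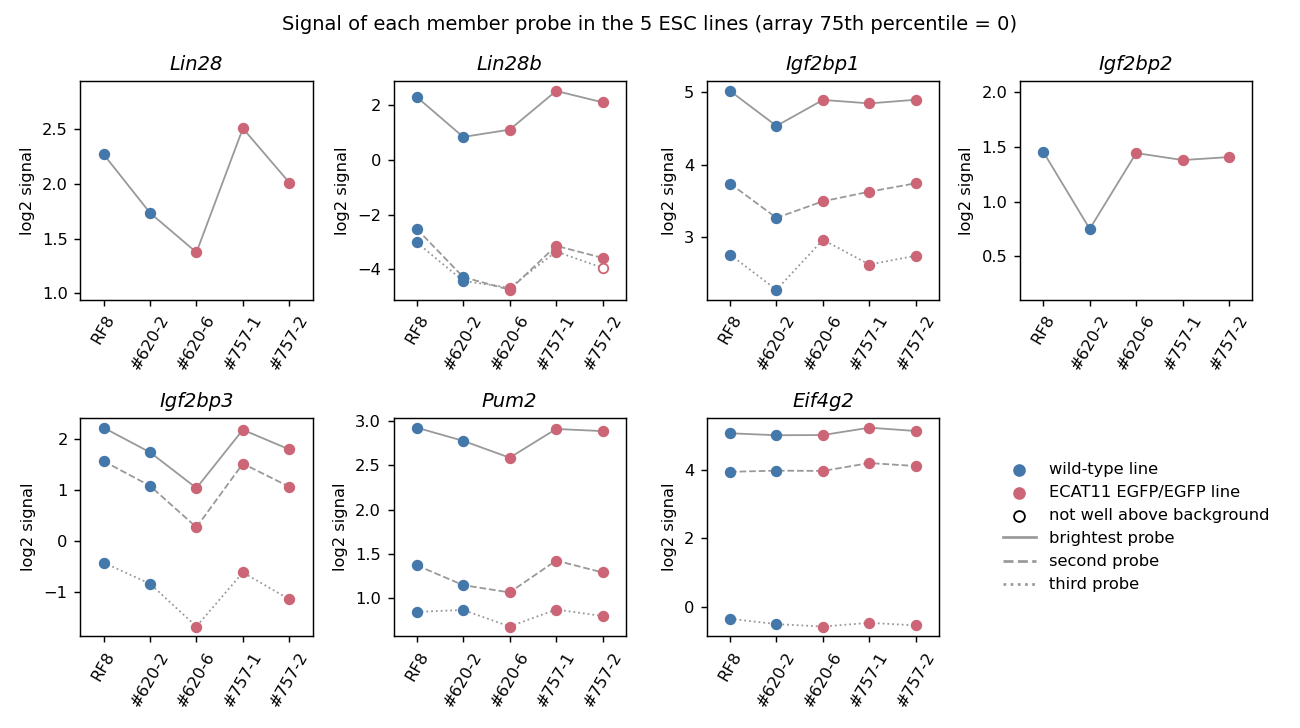
Log2 signal (array 75th percentile = 0) of each of the 17 member probes in the 5 ESC lines, 1 array per line, with blue points for wild-type and red for ECAT11 EGFP/EGFP lines. The vertical axes differ in span between genes, and lines join the points of 1 probe only to tell probes apart. Lin28 and the 3 Lin28b probes are lowest in #620-2 and #620-6, while the Pum2 and Eif4g2 probes are nearly level.

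Lin28 and Lin28b, the let-7 regulators, varied between lines, and the low lines were of both genotypes. For Lin28, RF8 had a log2 signal of 2.27, and the other lines read 1.74 in #620-2, 1.37 in #620-6, 2.51 in #757-1 and 2.01 in #757-2. Both #620 lines lay below the other 3 lines, and 1 of these 2 low lines is wild-type and the other ECAT11 EGFP/EGFP. The genotype difference of Lin28 on the log2 scale was -0.04 (SE 0.40, 95% interval -1.09 to 1.01, adjusted p = 0.995 with limma, n = 2 and 3 lines). This interval holds changes between 0.469-fold and 2.02-fold. With the slide as a block, which leaves #620-6 against the 2 wild-type lines of slide 1, the difference was -0.63 (SE 0.38). In bulk RNA of this kind, fewer cells that express a gene and less RNA per cell cannot be told apart.

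The brightest Lin28b probe read 2.31 in RF8, 0.85 in #620-2, 1.11 in #620-6, 2.53 in #757-1 and 2.12 in #757-2. The #620 lines again lay below the others, all of which read 2.12 or more. Its genotype difference was 0.34 (SE 0.63, 95% interval -1.32 to 2.01, limma adjusted p = 0.964). The interval was among the widest of the members, since the spread within each genotype was large. The second Lin28b probe, at chr10:45267326-45267385, read -2.53, -4.29, -4.76, -3.15 and -3.59 in the same order of lines, and the third, whose sequence is given above, read -3.02, -4.43, -4.68, -3.36 and -3.95. Both had their 2 lowest signals in the #620 lines, as the brightest probe did, but their genotype differences had the opposite sign, at -0.42 and -0.27. With the slide as a block all 3 Lin28b probes were below 0, at -0.46 for the brightest and -1.35 and -0.95 for the others. The third probe was not well above background in #757-2.

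**Figure D2:**
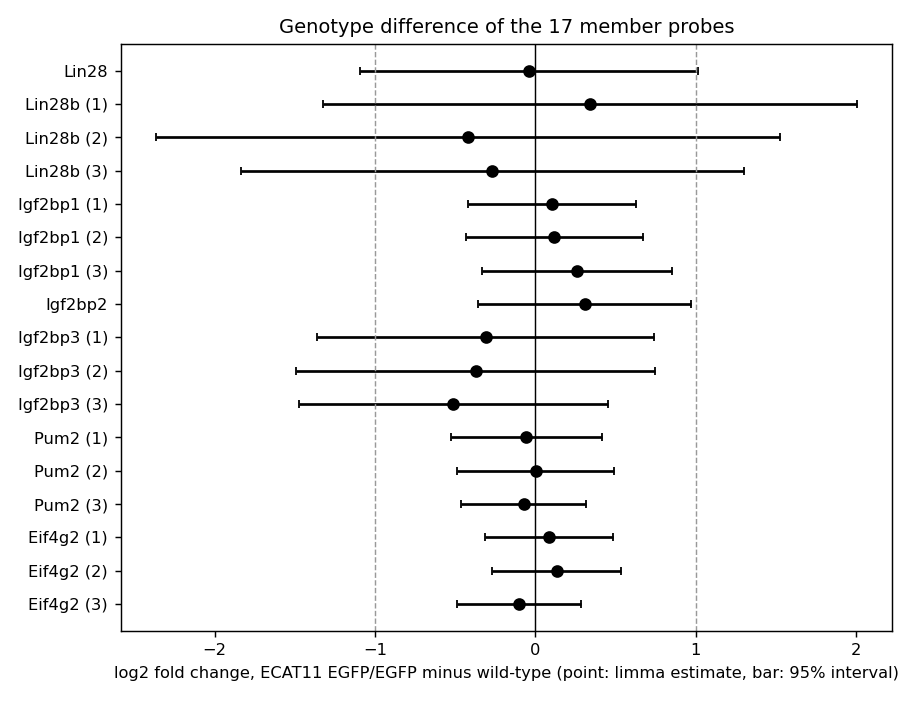
Genotype difference (log2 fold change, ECAT11 EGFP/EGFP minus wild-type) of the 17 member probes, with points for limma estimates and bars for 95% intervals; the number after a gene is the probe's rank by wild-type signal, 1 being the brightest. All 17 intervals include 0, and those of Igf2bp1, Igf2bp2, Pum2 and Eif4g2 lie inside the dashed lines that mark a 2-fold change.

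Among the IGF2BP family, the mRNA-binding proteins of which Igf2bp1 is a let-7 target, Igf2bp1 and Igf2bp2 were lowest in #620-2. The brightest Igf2bp1 probe, on chromosome 11, read 5.02 in RF8, 4.54 in #620-2, 4.90 in #620-6, 4.85 in #757-1 and 4.90 in #757-2. The other Igf2bp1 probes read 3.74, 3.27, 3.50, 3.63 and 3.74, and 2.76, 2.27, 2.96, 2.62 and 2.74, in the same order. #620-2 was lowest on all 3, and on the brightest the other 4 lines lay closer to each other, between 4.85 and 5.02. On the probe that read 3.27 in #620-2, #620-6 was also low, at 3.50 against 3.63 to 3.74 in RF8 and the #757 lines. The genotype difference of the brightest probe was 0.10 (SE 0.20, 95% interval -0.42 to 0.63, limma adjusted p = 0.967), and the other probes gave 0.12 and 0.26. The Igf2bp2 probe, on chromosome 16, read 1.45 in RF8, 0.75 in #620-2, 1.44 in #620-6, 1.38 in #757-1 and 1.41 in #757-2. Here too #620-2 was low and the other 4 lines lay close together. The genotype difference was 0.31 (SE 0.25, 95% interval -0.36 to 0.97, limma adjusted p = 0.875), and without #620-2 it was -0.04.

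Igf2bp3 was lowest in #620-6. Its brightest probe, on chromosome 6, read 2.22 in RF8, 1.74 in #620-2, 1.04 in #620-6, 2.18 in #757-1 and 1.79 in #757-2. The probe at chr6:49047900-49048507 read 1.56, 1.08, 0.27, 1.52 and 1.06, and the probe at chr6:49067452-49067511 read -0.42, -0.83, -1.67, -0.61 and -1.14. The order was thus alike on the 3 probes, with #620-6 at the bottom, RF8 and #757-1 at the top and the other two lines between them. Genotype differences were -0.31 (SE 0.40, 95% interval -1.36 to 0.74, limma adjusted p = 0.938) for the brightest probe and -0.37 and -0.51 for the others. With the slide as a block, they were -0.94, -1.05 and -1.04. These blocked values set #620-6 alone against the wild-type lines of slide 1, and no conclusion is drawn from their p-values. Without #620-6 the difference of the brightest probe was 0.0072.

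Pum2, the Pumilio repressor, and Eif4g2, the eIF4G relative, were nearly level over the lines. The brightest Pum2 probe, on chromosome 12, read 2.92 in RF8, 2.77 in #620-2, 2.58 in #620-6, 2.91 in #757-1 and 2.88 in #757-2. Its genotype difference was -0.06 (SE 0.18, 95% interval -0.53 to 0.42, limma adjusted p = 0.980), and the other probes gave 0.00 and -0.07. The lowest of the 5 lines was #620-6 on all 3 Pum2 probes, by small margins. The brightest Eif4g2 probe, on chromosome 7, read 5.07 in RF8, 5.01 in #620-2, 5.02 in #620-6, 5.23 in #757-1 and 5.13 in #757-2. Its genotype difference was 0.09 (SE 0.15, 95% interval -0.31 to 0.49, limma adjusted p = 0.961). The other Eif4g2 probes gave 0.13 and -0.10, the latter from the chr7:106994023-106994821 probe, which read -0.35, -0.50, -0.57, -0.47 and -0.54. All 3 intervals of each of the 2 genes lay within a 2-fold change in either direction.

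**Figure D3:**
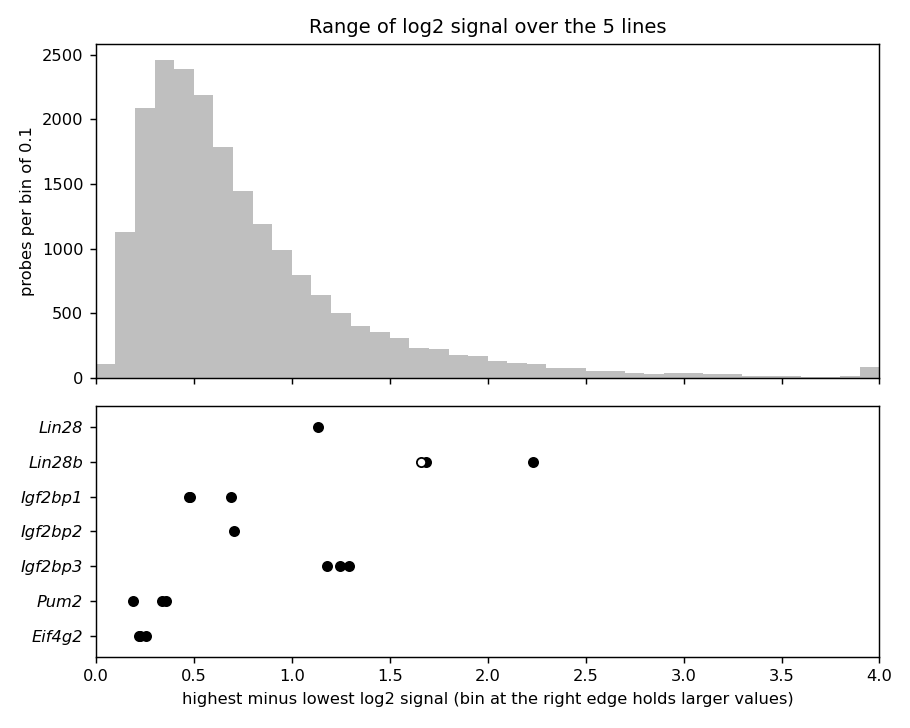
Highest minus lowest log2 signal over the 5 lines, for the 20630 probes well above background in all lines (histogram, top, probes per bin of 0.1) and for each member probe (bottom, open point for the Lin28b probe not well above background in #757-2). Lin28, Lin28b and Igf2bp3 lie in the right part of the distribution, and Pum2 and Eif4g2 in its left part.

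The members differed in how far their signals ranged over the 5 lines. Over the 20630 kept probes well above background in every line, the median range was 0.60 on the log2 scale. The range of Lin28 was 1.13, larger than that of 81.6% of these probes. The 3 Lin28b probes ranged over 1.69, 2.23 and 1.66, larger than 92.1%, 96.4% and 91.8%, and the Igf2bp3 probes over 1.18 to 1.29, larger than 83.0% to 85.7%. In contrast, the Eif4g2 probes ranged over 0.22 to 0.26 and the Pum2 probes over 0.19 to 0.36, with at most 22.9% of probes below them. The probes of 1 gene share the same RNA and are not replicates.

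The lines labelled female, #620-2 and #620-6, were then set against the other 3, with the genotype as a covariate. This comparison was added after the values had been seen, and it is a description of the pattern. The sex label and the origin of the #620 lines cannot be told apart. Both #620 lines lay below the other 3 on 9 of the 17 member probes, against 20.1% of all probes measured on every array, and 5 of these 9 belong to the 7 probes of Lin28, Lin28b and Igf2bp3. The brightest Lin28b probe had a fitted difference of -1.32 (SE 0.20, 95% interval -1.88 to -0.75), which is a signal 2.49-fold higher in the other lines, with an unadjusted p of 0.0034 and a limma adjusted p of 0.0926. The other Lin28b probes differed by -1.55 and -1.19, with adjusted p of 0.0894 and 0.130. Lin28 differed by -0.74 (SE 0.23, adjusted p = 0.195), or 1.67-fold. The Igf2bp3 probes differed by -0.63 to -0.79, with adjusted p between 0.180 and 0.250. The log2 differences of the Igf2bp1, Igf2bp2, Pum2 and Eif4g2 probes lay between -0.31 and -0.05. No member passed the adjusted threshold, as no probe on the array did (0% called). At an unadjusted p under 0.05 and over 2-fold, the 3 Lin28b probes passed, with a background of 8.82% in either direction and 3.67% lower in the #620 lines.

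**Figure D4:**
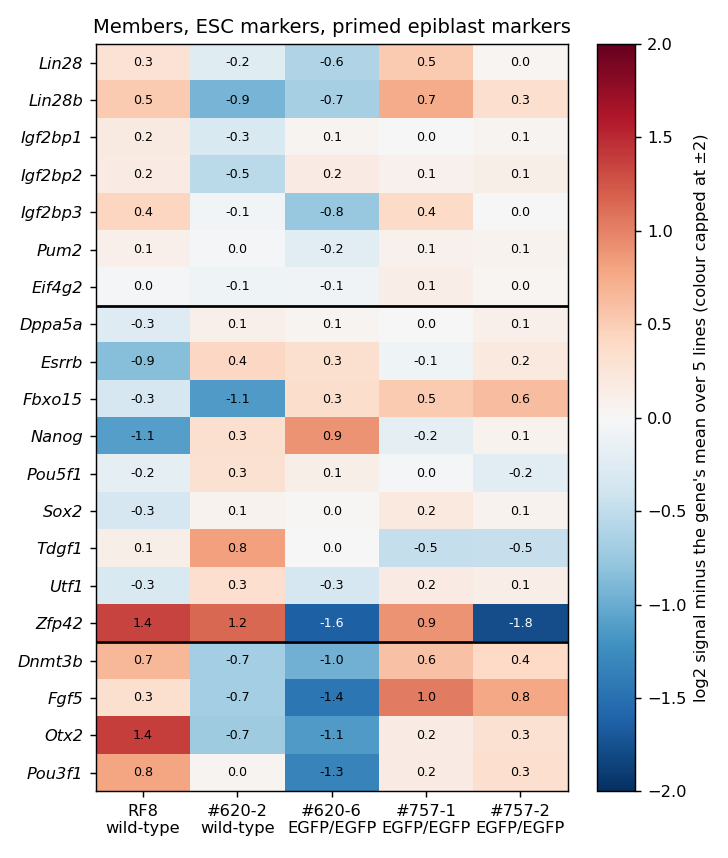
Log2 signal minus the gene's mean over the 5 lines, for the brightest probe of the 7 members (top), 9 ESC markers (middle) and 4 primed epiblast markers (bottom), with each line in a column. Blue cells are below the gene's mean and red above it. Lin28, Lin28b, Igf2bp3, Pum2, Eif4g2, Dnmt3b, Fgf5 and Otx2 are below their mean in both #620 lines. The margins are small for Pum2 and Eif4g2, and for Igf2bp3 in #620-2.

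Markers of other cell states were read in the same lines, as a description. The 4 markers of the primed epiblast, the later pluripotent state, were all lower in both #620 lines than in the other 3. These were Fgf5, Otx2, Pou3f1 and the DNA methyltransferase gene Dnmt3b, and together they summed to 117.5 times the 75th percentile for RF8, 59.5 for #620-2, 31.1 for #620-6 and 89.6 for each #757 line. Of the 9 ESC markers, 3 were higher in both #620 lines than in the other 3, namely Nanog (3.95 and 4.53 against 2.53 to 3.70 on the log2 scale), Esrrb (3.83 and 3.74 against 2.56 to 3.62) and Pou5f1 (3.05 and 2.87 against 2.54 to 2.71). None of the 9 was lower in both, and Zfp42 was low in #620-6 and #757-2. The 5 fibroblast markers were well above background in all lines, with sums of 57.3 and 59.9 for #620-2 and #620-6 against 16.1 for RF8, 2.45 for #757-1 and 4.67 for #757-2. Of the 5, Col3a1, Thy1 and S100a4 were higher in both #620 lines than in the other 3, and Col1a1 and Col1a2 were highest in RF8. Most of the sum in the #620 lines was S100a4, at a log2 signal of 5.61 and 5.70 in the #620 lines and between -1.67 and -0.07 in the others. The 7 markers of differentiated lineages summed to 1.30 or less in every line, with 7 of 7 well above background on slide 1 and 3 of 7 on slide 2. The endoderm genes Sox17 (highest in #620-2, at -2.64) and Gata6 (-1.35 and -2.30) read higher in both #620 lines than in the others, where Sox17 lay between -4.99 and -4.93 and Gata6 between -3.69 and -3.07. Pax6 (-2.01 and -1.80) and T (-4.92 and -6.40) read lower in both #620 lines than in the other 3. The part of these cell states, of other cells and of the slide in the signals of Lin28, Lin28b and Igf2bp3 was not tested.

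The members were also compared within the pairs of lines that share a number. The 11 member probes that were lower in #620-6 than in #620-2 included Lin28 and all 3 Igf2bp3 probes, and 6 were higher. Signals were higher in #757-1 than in #757-2, both ECAT11 EGFP/EGFP, on 13 of 17 member probes, including all 7 probes of Lin28, Lin28b and Igf2bp3. For Lin28 that difference between 2 lines of 1 genotype was 0.50, and the genotype difference was -0.04. The shares of all probes lower in #620-6 than in #620-2, or higher in #757-1 than in #757-2, were not counted. The counts of 11 and 13 are therefore not read as a trait of the members. Whether the genotype difference itself differed between the #620 lines and the others was tested as an interaction in limma. Among the others, that difference set the #757 lines against RF8, which lay on another slide and is of another strain background. RF8, #620-2 and #620-6 were each the only line of their group in this fit. The only spread within a group was thus that between #757-1 and #757-2. An effect of slide or strain background cannot be told apart from the interaction, and no conclusion is drawn from its p-values. For 0 of 17 member probes was its adjusted p under 0.05, where 0% of all probes passed, and the smallest was 0.497, for Igf2bp2. At an unadjusted p under 0.05 no member passed either, where 10.6% of all probes did.

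The genes with the pattern most like that of Lin28 over the 5 lines, by the root mean square difference of log2 signals after each probe's mean was taken off, were Grip1 (0.044), Acadl (0.061) and Hook2 (0.064). They encode a receptor scaffold, a fatty acid dehydrogenase and a microtubule linker. For Lin28b, the member with the widest range on its brightest probe, they were Kif12 (0.069), Slc7a6 (0.071) and Elavl2 (0.071), a kinesin, an amino acid transporter and an RNA-binding protein. The log2 signal of Elavl2 was 3.17, 1.68, 1.88, 3.33 and 3.09 from RF8 to #757-2. The likeness rests on 5 arrays and 20630 probes.

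Around the members, 5 lists of genes of the same pathways were read in the genotype comparison, and limma called 0 of their probes, as did the unpaired test of the methods. The counts at an unadjusted p under 0.05 given for each list are to be read against the 7.61% of all probes kept that had one. The factors that process let-7 or take part in its decay and action, such as Drosha, Dicer1, the Argonautes and Dis3l2, were measured by 55 kept probes of 20 genes. Of these, 28 were higher and 27 lower in the ECAT11 EGFP/EGFP lines, with a median log2 fold change of 0.02 beside -0.02 for all probes kept, and 5 had an unadjusted p under 0.05. One probe of Tnrc6b, a partner of the Argonautes, was over 2-fold at an unadjusted p under 0.05. It read -4.82, -4.78, -5.61, -5.91 and -5.99 from RF8 to #757-2, lower in all 3 ECAT11 EGFP/EGFP lines (difference -1.04, SE 0.18, limma adjusted p = 0.382). It was well above background in 1 of these 3 lines. Of the other 5 Tnrc6b probes, the brightest gave a difference of 0.05, and the rest gave differences below 0. The probes with the largest of these, -0.57 and -0.58, were also lower in all 3 ECAT11 EGFP/EGFP lines. Their unadjusted limma p was 0.014 and 0.023, and their adjusted p 0.496 and 0.563. The probe with -0.58 was well above background in all 5 lines.

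The mRNAs that let-7 represses were measured by 43 probes of 19 genes, with 23 higher, 20 lower and a median of 0.05. Before adjustment, 8 of the 43 probes had a p under 0.05, and the smallest adjusted p was 0.494. That was a probe of Sall4, a zinc finger factor of ESCs, with -1.24, -1.14, -0.22, 0.61 and -0.22 from RF8 to #757-2. All 3 ECAT11 EGFP/EGFP lines lay above the wild-type lines (difference 1.25, SE 0.32), while the other Sall4 probe gave 0.25. Myc, Hmga2 and Arid3b, further let-7 targets, are named for their unadjusted p, after their values were seen. Both Myc probes had lower values in the ECAT11 EGFP/EGFP lines, with differences of -0.59 and -0.69, and a probe of Hmga2, the chromatin protein, had higher values, with a difference of 0.52. A probe of Arid3b, a DNA-binding protein, had a difference of 0.54, and its other 2 probes had 0.45 and 0.50. None of these passed the adjusted threshold.

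The mRNAs known to be bound by IGF2BP, TRIM71 or PUM proteins were measured by 20 probes of 11 genes, with 12 higher, 8 lower, a median of 0.02 and 3 at an unadjusted p under 0.05. H19, the imprinted noncoding RNA beside Igf2, met the rule for named genes on both its probes. The brighter read -0.33 in RF8, 0.22 in #620-2, 3.01 in #620-6, 1.43 in #757-1 and 1.93 in #757-2, so that all 3 ECAT11 EGFP/EGFP lines lay above both wild-type lines. The difference was 2.18 (SE 0.53, 95% interval 0.79 to 3.57, 4.52-fold, limma adjusted p = 0.486) for this probe and 2.13 (adjusted p = 0.494) for the other. With the slide as a block they were 3.06 and 3.02. The H19 difference thus did not pass the threshold over all probes.

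**Figure D5:**
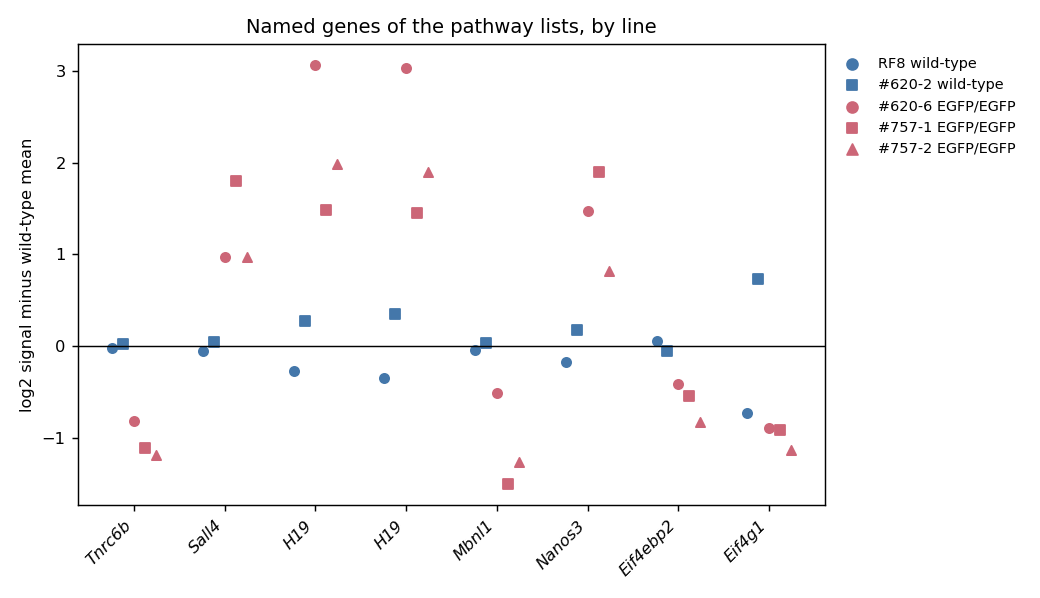
Log2 signal minus the mean of the wild-type lines for the 8 probes of the pathway lists that the rule for named genes picked, with each point a line (blue wild-type, red ECAT11 EGFP/EGFP). H19 appears with both its probes, whose 3 ECAT11 EGFP/EGFP lines lie above both wild-type lines, and Eif4g1 is high in #620-2 alone.

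Other RNA-binding proteins of stem and germ cells were measured by 63 probes of 27 genes, with 32 higher, 31 lower, a median of 0.01 and 2 at an unadjusted p under 0.05. Nanos3, a germ cell partner of the Pumilio proteins, read -4.11, -3.76, -2.46, -2.03 and -3.12 from RF8 to #757-2, with a difference of 1.40 (SE 0.37, limma adjusted p = 0.501). A probe of the splicing regulator Mbnl1 gave -1.09 (adjusted p = 0.578), was well above background in 1 of the 3 ECAT11 EGFP/EGFP lines, and its other probe gave -0.06. The translation initiation factors and their regulators, the relatives of Eif4g2, were measured by 48 probes of 21 genes, of which 24 were higher and 24 lower, with a median of 0.00 and 1 at an unadjusted p under 0.05. No probe of that list met the rule for named genes, and its genes with the widest differences were Eif4g1, at -0.98 (adjusted p = 0.746), and Eif4ebp2, a repressor of cap-dependent initiation, at -0.60 (adjusted p = 0.586). The Eif4g1 probe was high in #620-2 alone, and the other probe of Eif4g1 gave -0.02.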

How the data were processed

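RNA of 5 mouse ESC lines was measured on 1 one-colour Agilent array each. The authors extracted the arrays with Feature Extraction and deposited for each spot a background-corrected intensity, not normalized between arrays. A second deposited file holds log2 values. Its array-to-array differences followed those recomputed here (slope 0.999, Pearson r 0.9995), each of its columns has a median of 0, and its centring is not stated.

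Control spots (1639 of 45018) and spots marked as outliers were left out, each intensity was put on the log2 scale relative to its array's 75th percentile, and spots of a probe were averaged. The test was run on the 28972 probes that were Present on 1 or more arrays. The genotype test was limma's (version 3.58.1, under R 4.3.3), adjusted over all probes kept (Benjamini-Hochberg), with a threshold of 0.05 and of 2-fold. The brightest probe, by mean over the 5 lines, stood for a gene. Tables were read with data.table (version 1.17.8), and figures drawn with matplotlib 3.10.9. The code was tested on simulated data.

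Probes were named through RefSeq (GRCm38.p6), 22944 by accession, 6666 by symbol and 3096 by synonym, and 8468 kept the files' name. All members are named, and 1 gene of the lists is not reported here by name. Of the lists, genes are named whose probe had an unadjusted p under 0.05 and over 2-fold, or, in a list with none, the 2 genes with the largest change that were well above background in all lines. Outside this rule, the let-7 targets Myc, Hmga2 and Arid3b are named for their unadjusted p, after their values were seen. Members and lists were chosen with earlier results of these data known, and the comparison by sex label was added after its values were seen. Alternatives were quantile normalization, normexp background correction with an offset of 50, the deposited log2 values, a filter at 3 arrays or none, a block for the slide, a covariate for the sex label, the methods' own unpaired test, the mean over a gene's probes, and leaving out each line. No paired analysis was possible because the genotypes share only 1 line number, 620.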

Additional observations from a re-analysis of the deposited data

How the results depend on the processing

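The count of members called between the genotypes was 0 under every alternative that was run, as was that of the pathway lists. No member's genotype difference passed the threshold under any of them. Blocking on the slide, the differences of Lin28b (-0.46) and Eif4g2 (-0.023) changed sign, and those of Lin28 (-0.63), Igf2bp3 (-0.94) and Pum2 (-0.26) moved further below 0, while Lin28b also changed sign with the mean over its probes (-0.12). The cause was not tested. Leaving out 1 line at a time gave -0.31 to 0.26 for Lin28 (above 0 without RF8 or #620-6), -0.39 to 1.07 for Lin28b (below 0 without #620-2, highest without RF8), -0.14 to 0.34 for Igf2bp1 and -0.045 to 0.66 for Igf2bp2 (below 0 without #620-2). It gave -0.56 to 0.0072 for Igf2bp3 (above 0 without #620-6), -0.13 to 0.048 for Pum2 (above 0 without RF8 or #620-6) and 0.036 to 0.14 for Eif4g2. In the comparison by sex label, normexp background correction called 1 member, Lin28b, with a difference of -1.28 and a limma adjusted p of 0.045, against 0.0926 in the main setting. The share of all probes called under normexp in the sex label comparison is not given, so this call is not read as a trait of Lin28b. In that comparison, Igf2bp1 ranged from -0.48 to 0.023 and Igf2bp2 from -0.70 to 0.050 when 1 line was left out, above 0 without RF8 or #620-2, while Lin28, Lin28b, Igf2bp3, Pum2 and Eif4g2 stayed below 0. Differences whose 95% interval includes 0 were not told apart from 0 with these 5 arrays, and dim probes had less room above background on slide 2.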
